A study of Mus musculus with 6 samples.

Results

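The stomach's acid-secreting parietal cell keeps its proton pump in tubulovesicles, and 10 genes of the machinery that moves these membranes to the apical surface were examined in the fundic mucosa of wild type and Lasp1 knockout mice. They were the Rab11 family GTPases Rab11a and Rab25, the Rab11 effectors Rab11fip1 and Rab11fip2, the motor Myo5b, the SNARE genes Vamp2, Vamp8, Stx3 and Snap25, and the carrier membrane protein gene Scamp1. All probes whose annotated symbol was one of these were taken, which gave 24 of 45281 probes and 10 of 19057 named genes. The rule selects probes by symbol and has no threshold on their values. Total RNA came from mice aged 3 months of the C57Bl/6Ncr strain, 3 arrays per genotype, and the question was how deletion of Lasp1, an actin-binding protein gene, alters mRNA levels there. The labels give neither the design of the deletion nor the cells in which it acts. Whether each array came from its own mouse is not stated, and p-values then cover only the spread among these 6 samples.

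When a parietal cell is stimulated, tubulovesicles carrying the pump fuse with the apical membrane, and when stimulation ends the membrane is taken back. Rab11 GTPases mark the recycling compartment, their effectors link it to motors such as myosin 5b, and SNARE proteins on vesicle and target membranes pair to drive fusion. Much of this control acts on proteins already present in the cell, whereas the arrays read mRNA only. In bulk mucosa, fewer cells of a type and less RNA per cell cannot be told apart.

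The values are linear probe intensities as deposited, with a median of 1000 on each array. The dimmest probes read well above 0, as in values without subtraction of background, a step the labels do not state. Background was read from 13 probes of Y-linked genes in these Xist-positive samples, whose brightest lay between 1020 and 1212 on the 6 arrays, and 35.8% to 48.5% of all probes lay above it. At its brightest probe Lasp1 itself read 177315 to 275068 in wild type and 88521 to 111002 in knockout mucosa, without overlap. The log2 difference was -1.30 (limma unadjusted p = 0.00041, adjusted p = 0.994). Its probe ILMN_2879745 read 13074 to 31441 against 6674 to 8652 (log2 -1.59, limma unadjusted p = 0.0024, adjusted p = 0.994). ILMN_2596851 read 877 to 1483, near background (log2 -0.21). The adjusted threshold thus missed the lower readings of the brighter Lasp1 probes, so an uncalled gene is not shown to be unchanged. Whether the probes lie in the deleted part is not known here. Wild type replicate 3 stood apart. Of 10 pancreatic acinar genes, 8 were measured and 4 lay above background on every array, and their summed intensity was 4592997 there, 384048 on knockout replicate 3, and 80111 to 123173 on the other arrays. Ctrb1, Cpa1, Prss2 and Cela3b read 790 to 1401 on the arrays of low sum. Among these readings, Prss2 (1401), Ctrb1 (1143) and Cela3b (1050) exceeded background (1020) on knockout replicate 1. All 10 squamous genes were measured, 2 of them above background on every array. They summed to 602170 on wild type replicate 2 and 1030590 on knockout replicate 1, and to 15392 to 32134 elsewhere. Smooth muscle genes (6 of 6 measured, 4 above background on every array) summed to 233489 on knockout replicate 1 and 35213 to 103079 on the others.

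The tissue label was matched by parietal transcripts. Of 13 parietal genes 12 were measured and 11 lay above background on every array, with Kcnq1 (877 to 1142) the exception. Their summed intensity was 1451734 to 1644623 in wild type and 1504515 to 1704252 in knockout mucosa. Surface pit genes summed to 1163848 to 1438360, mucous neck genes to 319481 to 370808 and leukocyte genes to 18275 to 33344 over the 6 arrays. Chief cell genes summed to 1008598 to 1098976 on all arrays but wild type replicate 3, where 2 genes shared with the exocrine pancreas, Rnase1 and Cpb1, raised the sum to 2281214.

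None of the members was called different between the genotypes, and at the adjusted threshold neither was Lasp1 itself. Of the 24 probes, 17 from 9 genes were bright enough to test, having a mean above that of the median probe, and Snap25 had no such probe. In limma none of the 17 passed an adjusted p of 0.05, nor an unadjusted one, the smallest being 0.0745. Over all 22640 tested probes, 0.00883% passed the adjusted threshold and 1.73% the unadjusted one. The knockout mean was higher for 16 of the 17 probes, and for 76.9% of all tested probes. Of probes with a mean intensity above 5000, 89.7% were higher in the knockout (median log2 0.18), as were all 10 such member probes (0.23). The median log2 difference over the 9 genes, by the brightest probe of each, was 0.20, beside 0.10 over all tested probes. After quantile normalization these medians were 0.08 and 0.0030, with 12 of 17 member probes and 50.9% of all tested probes higher. Without wild type replicate 3 they were 0.04 and -0.0039, with 11 of 17 and 48.9% higher. The plot of intensities by gene shows where that array lay.

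**Figure D1:**
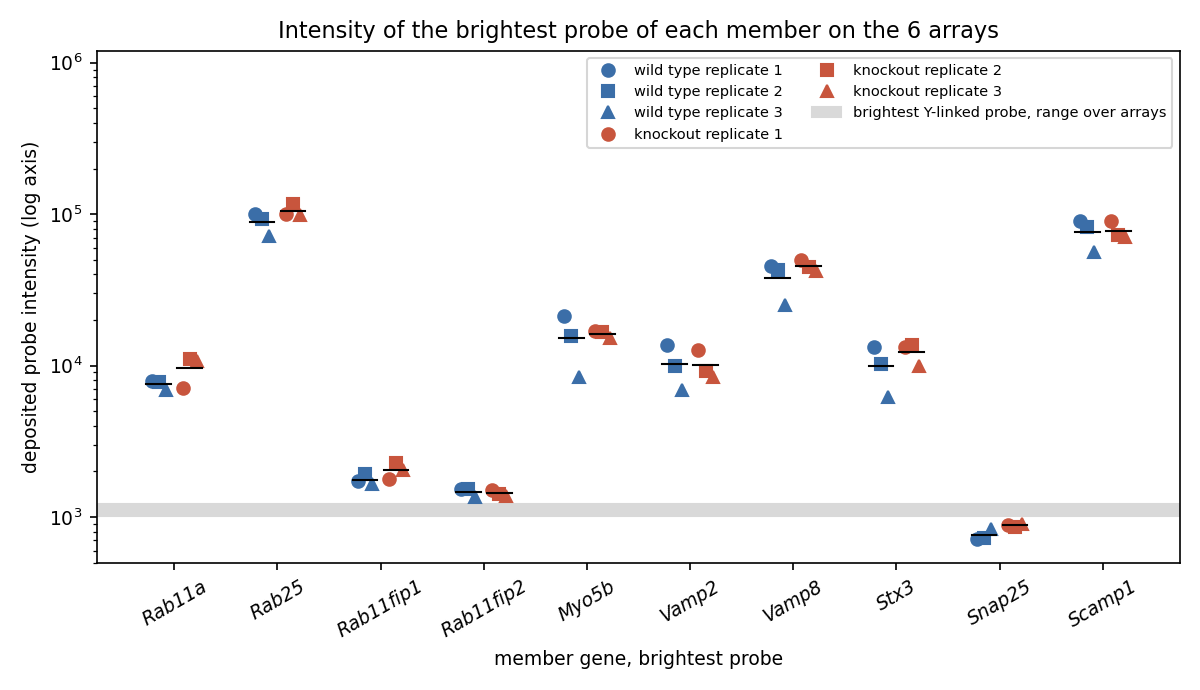
Deposited intensity (log axis) of the brightest probe of each of the 10 members on the 6 arrays, with wild type in blue, knockout in red, a marker shape for each replicate, a black line at each group mean, and in grey the range of the brightest Y-linked probe (1020 to 1212). The triangle of wild type replicate 3 lies below the other wild type points for every gene but Snap25, whose points all lie under the grey band.

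Rab11a, the GTPase of the recycling endosome that gave the family its name, was read by 1 probe, ILMN_1230413. In wild type mucosa replicates 1 to 3 read 7880, 7777 and 6910, and knockout replicates 1 to 3 read 7089, 11107 and 10797. Knockout replicates 2 and 3 lay above the other 4 arrays, while knockout replicate 1 lay within the wild type range. The means were 7522 ± 532 and 9664 ± 2236 (SD, n = 3 each). The log2 difference was 0.34 (SE 0.20, 95% interval -0.13 to 0.80, limma adjusted p = 0.994), and the exact two-sided permutation p was 0.3. Quantile normalization lowered the difference to 0.16, as wild type replicate 3 then read 9458 beside 6989 and 7933 on the other wild type arrays. The difference was 0.28 without wild type replicate 3, and 0.27 with quantile normalization of the remaining arrays. Rab11a passed in 1 of its 19 alternatives, with array weights (log2 0.42, limma adjusted p = 0.0455, range over the alternatives 0.0455 to 1). That fit gave wild type replicate 2 a weight of 38.8 and no other array more than 1.6, and 8.02% of all probes passed in it.

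The titles of the arrays carry a number from 1 to 6 whose meaning is not given, with wild type replicates 1 and 2 and knockout replicate 1 numbered 1 to 3. Within those the log2 difference of Rab11a was -0.14, and within the arrays numbered 4 to 6 it was 0.66 (-0.23 and 0.18 after quantile normalization). With that set as a block the difference was 0.26 (limma adjusted p = 0.477), and it was -0.03 with both the block and quantile normalization. Each within-set value rests on 1 array of one genotype, knockout replicate 1 or wild type replicate 3, and both of those carried transcripts of other tissues.

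Rab25 is the Rab11 family member restricted to epithelia. Its probe ILMN_2776087 read 100441, 92991 and 71523 in wild type and 100186, 117049 and 98024 in knockout mucosa, replicates 1 to 3 in each. The groups overlapped, with wild type replicate 3 lowest and knockout replicate 2 highest (log2 0.26, SE 0.16, 95% interval -0.13 to 0.65, limma adjusted p = 0.994). The difference was 0.11 after quantile normalization and 0.12 without wild type replicate 3. The second probe, ILMN_2781721, read 40507, 40220 and 23581 in wild type and 47393, 44757 and 42426 in knockout mucosa. Here the lowest knockout array exceeded the highest wild type array, and the means differed by 0.41 log2 (SE 0.22, 95% interval -0.12 to 0.94, limma adjusted p = 0.994). The exact permutation p was 0.1, the smallest that 3 against 3 arrays can give. It was among 2 of the 17 tested member probes, 11.8%, whose groups did not overlap, both higher in the knockout. Over all tested probes 7.19% had such groups, and 6.17% had them with the knockout higher. After quantile normalization the groups of ILMN_2781721 still did not overlap (31778 to 40918 against 41341 to 43441, log2 0.22), and without wild type replicate 3 the difference was 0.15.

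The 2 probes of Rab25 ordered the arrays differently from each other, and the probe of Rab11a differently from both. The bases before the start sites of 3 members are shown, Rab11a and Rab25 as close relatives and Vamp8 as a SNARE gene with a window. They are 250 bases each from RefSeq, GRCm38.p6, printed 5′ to 3′ on the gene's strand. The Rab11a window is chr9:64737757-64738006, that of Rab25 chr3:88548280-88548529 and that of Vamp8 chr6:72390668-72390917, all on the minus strand. Capitals mark matches, searched on either strand, to any of 7 motifs. The cAMP response element was searched as TGACGTCA and the binding site of ETS factors as CCGGAAGT. The letters GGGCGG stand for the GC box, a site of Sp1 family proteins. The letters TATAAA stand for the TATA box, which is found close before the start of some genes. The CCAAT box was searched by the letters of its name. The E-box, bound by helix-loop-helix proteins, was searched as CACGTG, and the estrogen-related receptor element as TCAAGGTCA.
Rab11a: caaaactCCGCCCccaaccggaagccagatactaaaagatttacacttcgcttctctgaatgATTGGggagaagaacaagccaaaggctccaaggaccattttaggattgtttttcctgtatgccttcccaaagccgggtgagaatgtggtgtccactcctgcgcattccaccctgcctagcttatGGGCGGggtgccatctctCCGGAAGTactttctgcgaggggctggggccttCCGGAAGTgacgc
Rab25: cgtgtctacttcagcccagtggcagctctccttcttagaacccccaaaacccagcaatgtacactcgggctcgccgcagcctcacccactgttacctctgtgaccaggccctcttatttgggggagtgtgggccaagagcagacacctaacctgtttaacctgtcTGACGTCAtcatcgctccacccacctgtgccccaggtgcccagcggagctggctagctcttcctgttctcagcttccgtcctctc
Vamp8: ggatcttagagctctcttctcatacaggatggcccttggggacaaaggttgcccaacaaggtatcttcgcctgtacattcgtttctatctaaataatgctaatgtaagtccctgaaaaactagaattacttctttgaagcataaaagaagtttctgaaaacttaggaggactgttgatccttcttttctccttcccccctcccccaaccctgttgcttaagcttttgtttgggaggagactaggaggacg

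The Rab11a window held 2 GC boxes, 2 ETS sites, the nearer of them 13 to 6 bases before the start, and 1 CCAAT box. The Rab25 window held 1 full cAMP response element, 85 to 78 bases before the start, and no other match. None of the 7 motifs was in the Vamp8 window. Of all 32851 windows of this length in the table, 1.55% held the cAMP response element, 2.88% the ETS site, 32.7% the GC box and 33.8% the CCAAT box. CpG counts were 10 for Rab11a, 8 for Rab25 and 3 for Vamp8, beside a median of 6. A match is a description of the letters and not a bound site. Windows were given for 6 of the 10 members. Rab11fip2 and Scamp1 had 2 start sites each, with CpG counts of 26 and 36, and of 7 and 41. Stx3 had 1 window, with 6 CpG. It held the TATA letters on the opposite strand (TTTATA), 85 to 80 bases before the start. Of all windows, 12.4% held these letters on either strand.

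The effectors tie Rab11 to its motor. Rab11fip1, which binds both Rab11 and Rab25, was dim on all 3 of its probes. ILMN_1221771 read 1739, 1911 and 1652 in wild type and 1787, 2269 and 2045 in knockout mucosa (log2 0.20, SE 0.14). ILMN_1230584 read 1716, 1716 and 1410 against 2055, 1873 and 1902, with no overlap (log2 0.27, SE 0.13, 95% interval -0.04 to 0.58, limma adjusted p = 0.994). It had the smallest unadjusted p of the member probes. Its groups also stayed apart after quantile normalization, at 1603 to 1725 and 1833 to 1947 (log2 0.18). The probe designed on a cDNA, ILMN_1225223, read 1230 to 1582 in wild type and 1476 to 1713 in knockout mucosa (log2 0.23, SE 0.14). The 3 probes thus differed in the same direction by like amounts, but they read the same RNA of the same 6 samples, and none passed. Values that include background, as these appear to, can understate the differences of probes this dim. After quantile normalization the differences of ILMN_1221771 and ILMN_1225223 were 0.08 and 0.15. With normexp background correction before that step, ILMN_1221771, ILMN_1230584 and ILMN_1225223 differed by 0.12, 0.27 and 0.26.

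Rab11fip2, the effector that binds myosin 5b as well as Rab11, had 1 probe above the filter, ILMN_2933151. It read 1523, 1523 and 1354 in wild type and 1515, 1428 and 1380 in knockout mucosa. The groups overlapped and the log2 difference was -0.02 (SE 0.12, 95% interval -0.30 to 0.25). After quantile normalization the knockout arrays (1408 to 1420) lay below the wild type arrays (1437 to 1574), by 0.10 log2 (limma adjusted p = 1). Wild type replicate 3 had risen to 1574, while wild type replicate 1 and knockout replicate 1 had fallen to 1437 and 1420. Without wild type replicate 3 the difference of deposited values was -0.081. On quantile-normalized values 3 of 17 member probes had groups without overlap, 2 higher and 1 lower in the knockout, beside 3.01% higher and 3.36% lower of all tested probes. Its other 2 probes lay at 582 to 812, under background on every array.

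Myo5b, the actin motor that carries Rab11 vesicles, had 3 tested probes. ILMN_2539489 read 21158, 15749 and 8401 in wild type and 16979, 16643 and 15149 in knockout mucosa. Its wild type arrays spread over a range that enclosed all 3 knockout arrays (log2 0.20, SE 0.32, 95% interval -0.55 to 0.96). ILMN_2610576 read 6669 to 10373 in wild type and 8401 to 12226 in knockout mucosa (log2 0.19, SE 0.22), and ILMN_1216810 read 2760 to 4846 and 3896 to 4668 (log2 0.09, SE 0.23). After quantile normalization the 3 differences were 0.02, 0.01 and -0.05, and without wild type replicate 3 they were -0.17, 0.0003 and -0.17. A further 2 probes annotated to Myo5b stayed under background on every array, at 674 to 983. The knockout arrays of one of these, ILMN_2539407, lay below the wild type arrays, at a level where there is no fold to give. No tested probe of Myo5b gave a difference larger than the spread between arrays.

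ILMN_2539489 varied most over the 6 arrays among the tested member probes (SD 0.45 log2). The genes whose brightest probe followed it most closely were Micall2, Hlcs and Phka2. Their centred log2 values differed from it by a root mean square of 0.05 each over 6 arrays, out of 11867 genes compared. Micall2 read 19834, 14106 and 8046 in wild type and 16000, 16724 and 14549 in knockout mucosa. Likeness over so few arrays is a description of these profiles only.

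**Figure D2:**
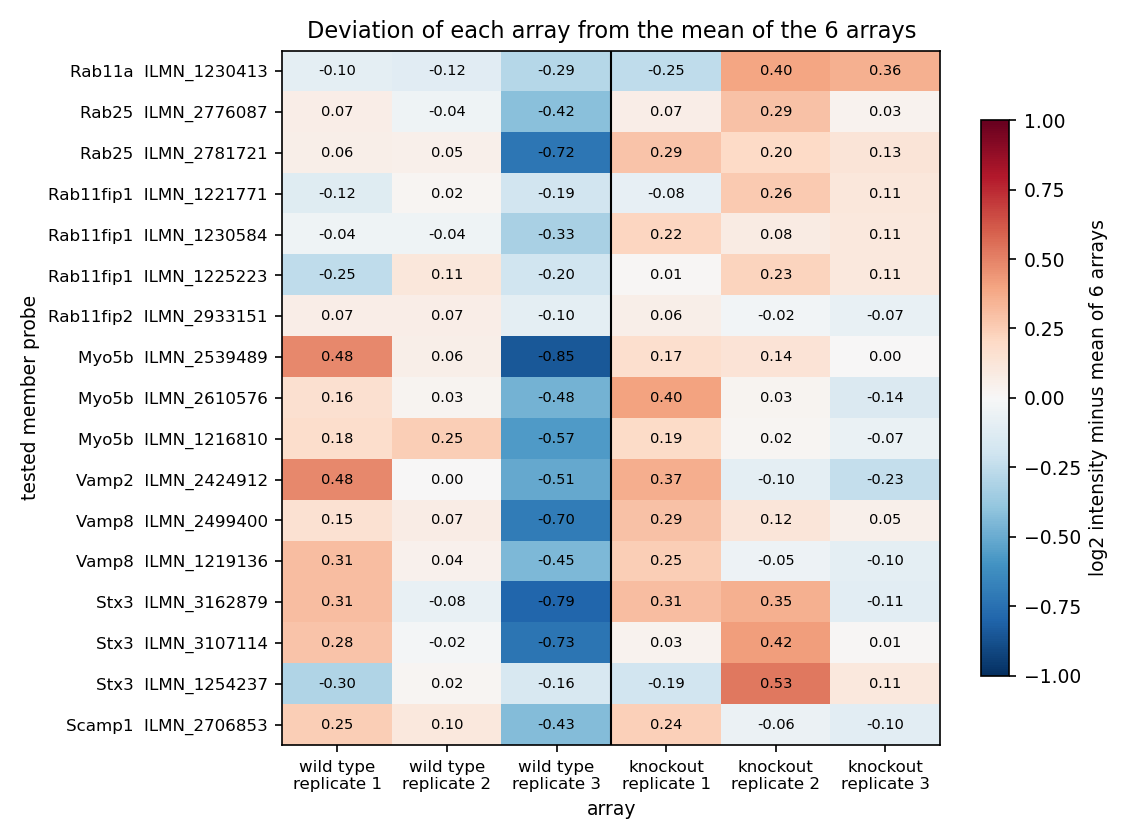
Deviation of each array (columns) from the mean of the 6 arrays, in log2 intensity, for the 17 tested member probes (rows), blue for lower and red for higher. The column of wild type replicate 3 is negative for all 17 probes, from -0.10 for Rab11fip2 to -0.85 for Myo5b, while knockout replicates 2 and 3 are both high for Rab11a.

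Wild type replicate 3 was the lowest of the 6 arrays for 15 of the 17 member probes, the exceptions being ILMN_1254237 of Stx3 and ILMN_1225223 of Rab11fip1. It was also lowest for 64.9% of all tested probes and for 85.4% of the 7874 probes with a mean intensity above 5000. Member probes read there at a median of 65.5% of the mean of the other wild type arrays, from 45.5% to 98.2%. The same figure was 80.0% over all tested probes and 69.2% over the bright ones. The pancreatic acinar sum was highest on that array, as given above, and its part in these low values was not tested. After quantile normalization it was lowest for 7 of 17 member probes and for 26.5% of all tested probes.

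Among the vesicle SNAREs, Vamp2 pairs with syntaxins at the plasma membrane and is found on parietal tubulovesicles. Its probe ILMN_2424912 read 13748, 9877 and 6904 in wild type and 12706, 9191 and 8376 in knockout mucosa. The groups overlapped almost fully, with replicate 1 highest in each, at means of 10176 ± 3431 and 10091 ± 2301 (SD, n = 3 each). The log2 difference was 0.02 (SE 0.28, 95% interval -0.64 to 0.68, limma adjusted p = 0.997). It was -0.16 after quantile normalization and -0.23 without wild type replicate 3. Smooth muscle transcripts were highest on the same 2 arrays, with sums of 103079 on wild type replicate 1 and 233489 on knockout replicate 1, and lowest on wild type replicate 3 (35213). Their part in the Vamp2 values was not tested. Scamp1 and probe ILMN_1219136 of Vamp8 were also highest on replicate 1 of each genotype. Of all tested probes, 30.4% were highest on wild type replicate 1 and 26.4% on knockout replicate 1.

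Vamp8, the vesicle SNARE of regulated exocytosis in exocrine glands, had a pair of probes. ILMN_2499400 read 45429, 42997 and 25192 in wild type and 50008, 44503 and 42382 in knockout mucosa (log2 0.31, SE 0.24, 95% interval -0.25 to 0.88, limma adjusted p = 0.994). Wild type replicate 3 alone lay apart there, and without it the difference was 0.04. ILMN_1219136 read 13586, 11256 and 8033 against 12985, 10586 and 10221 (log2 0.06, SE 0.21). After quantile normalization the probes differed in sign, at 0.12 and -0.11, with overlapping groups for both.

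Of the target membrane SNAREs, Stx3 encodes the syntaxin of apical membranes. Its 4 probes were annotated to 3 RefSeq transcripts. ILMN_3162879, on NM_152220, read 13338, 10197 and 6226 in wild type and 13355, 13747 and 9978 in knockout mucosa (log2 0.37, SE 0.29, 95% interval -0.31 to 1.06, limma adjusted p = 0.994). ILMN_3107114, on NM_011502, read 5126, 4162 and 2537 against 4309, 5627 and 4234 (log2 0.31, SE 0.27). Both were lowest on wild type replicate 3 and highest on knockout replicate 2.

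The probe of NM_001025307, ILMN_1254237, ordered the arrays differently. It read 1646, 2054 and 1817 in wild type and 1776, 2918 and 2186 in knockout mucosa (log2 0.29, SE 0.20), so wild type replicate 1 was lowest. A second probe on that transcript, ILMN_2665125, stayed under background on all arrays (652 to 1002). After quantile normalization the 3 tested probes differed by 0.19, 0.16 and 0.17, and without wild type replicate 3 by 0.07, 0.02 and 0.29. Whether the transcripts changed unequally was not tested.

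Snap25, the partner of syntaxins best known from neurons and endocrine cells, was not detected. Its probes read 714 to 893 (ILMN_2741123) and 783 to 853 (ILMN_1231105), under the brightest Y-linked probe on every array. ILMN_2741123 read 714, 728 and 835 in wild type and 891, 860 and 893 in knockout mucosa, without overlap, but at that level there is no fold to give. Of 11 neuronal genes, all measured, only Syp (6330 to 9076) lay above background on every array, and Elavl3, Elavl4 and Prph were near background throughout. Vip read 3694 on knockout replicate 1 and 788 to 974 on the other arrays. Stmn2 (1390), Syt1 (1361) and Nefm (1040) also exceeded background (1020) on knockout replicate 1. Enteroendocrine genes were well read, 6 of 9 above background on every array, with Chga at 10440 to 20400. A probe under background does not show that the transcript is absent.

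Snap23, the relative of Snap25 found outside neurons, was measured with the other trafficking genes. It read 20268, 22270 and 20439 in wild type and 21656, 30348 and 27655 in knockout mucosa (log2 0.33, SE 0.15, limma adjusted p = 0.994). Knockout replicate 1 lay within the wild type range, and knockout replicates 2 and 3 were highest, as for Rab11a. These were the 2 highest arrays for 14% of all tested probes, 3 of 17 member probes and 11 of 64 other trafficking genes. The difference of Snap23 was 0.14 after quantile normalization and 0.31 without wild type replicate 3.

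Scamp1, a tetraspanning protein of secretory and recycling carriers, read 90327, 81732 and 56356 in wild type and 89624, 73002 and 70806 in knockout mucosa on ILMN_2706853. The groups overlapped, and the log2 difference of 0.05 (SE 0.21, 95% interval -0.44 to 0.54) turned to -0.11 after quantile normalization and to -0.15 without wild type replicate 3. The other 4 genes of the Scamp family also read lowest on wild type replicate 3. Scamp5, chosen after its values were seen, read 100352, 83450 and 42007 in wild type and 99021, 86654 and 71099 in knockout mucosa (log2 0.26). Its difference was 0.08 after quantile normalization and -0.11 without wild type replicate 3.

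**Figure D3:**
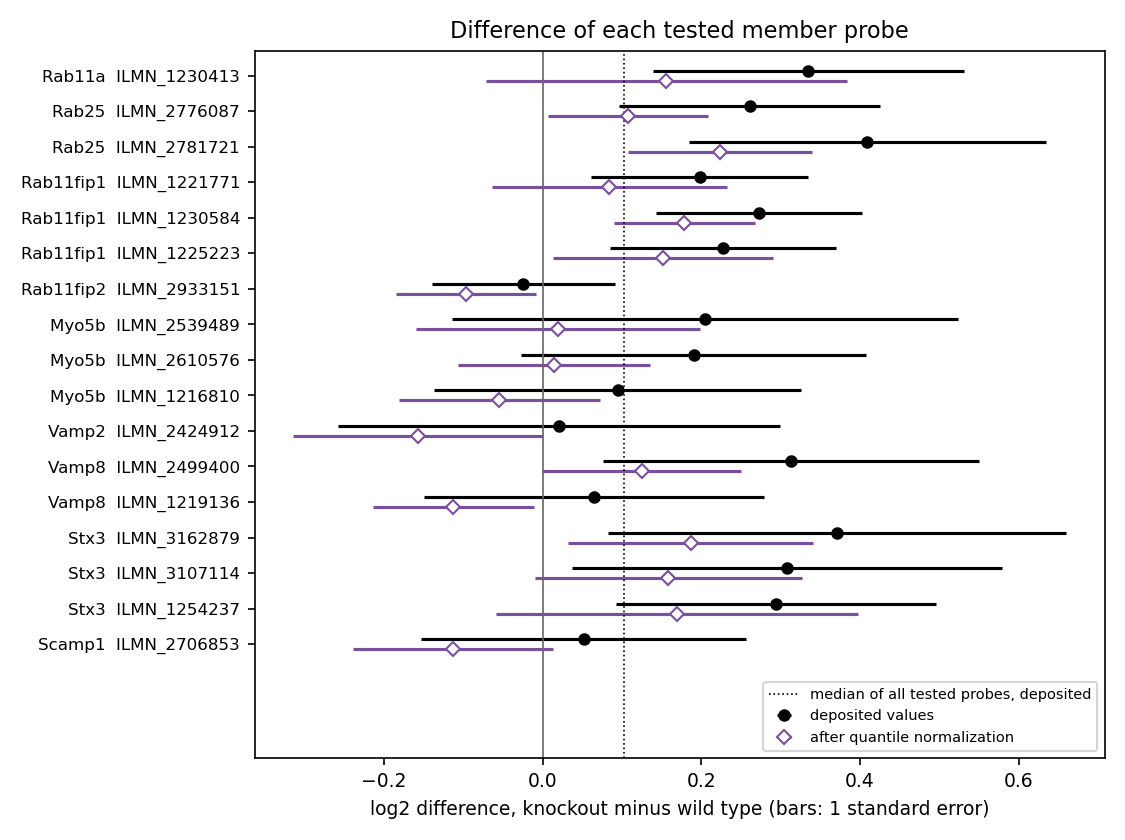
Log2 difference, knockout minus wild type, of each of the 17 tested member probes, from deposited values (black circles) and after quantile normalization (open diamonds), with bars of 1 standard error. The dotted line is the median of all tested probes in the deposited values (0.10), and all 17 diamonds lie to the left of their circles.

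The wider machinery was read from 71 further genes of recycling and SNARE fusion, of which 69 were on the array under these names and 64 were bright enough to test. None passed in limma, adjusted or unadjusted, and 60 of the 64 were higher in the knockout with a median of 0.17 log2. After quantile normalization 38 were higher, with a median of 0.02, beside 50.9% of all tested probes. Without wild type replicate 3 there were 32, with a median of -0.0014, beside 48.9% of all tested probes. By role, the deposited medians ran from 0.12 for recycling endosome and sorting genes and for other vesicle SNAREs to 0.26 for the other Scamp genes. All 10 tested syntaxins and Snap25 relatives had higher means (median 0.25), beside 76.9% of all tested probes. So did every tested gene among the other Scamp genes, other vesicle SNAREs and SNARE regulators. After quantile normalization 8 of 10 syntaxins and Snap25 relatives (median 0.08) and 4 of 4 other Scamp genes were higher.

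The genes of smallest unadjusted p on the higher side, after Snap23, were Stx7 (log2 0.36, SE 0.21), a syntaxin of late endosomes, and Snap47 (0.30, SE 0.17), a widely expressed Snap25 relative. After quantile normalization they differed by 0.17 and 0.16, and without wild type replicate 3 by 0.16 and 0.27. On the lower side were Rab4a (-0.17, SE 0.33), the GTPase of fast recycling, Vta1 (-0.07, SE 0.15), a cofactor of Vps4, and Exoc5 (-0.0040, SE 0.11), an exocyst subunit. Rab4a read 11955, 8554 and 5826 in wild type and 11158, 6291 and 5952 in knockout mucosa, with knockout replicates 2 and 3 and wild type replicate 3 as the lowest arrays. The difference of Rab4a was -0.34 after quantile normalization and -0.44 without wild type replicate 3, but it was positive within each title-number set (0.14 in the lower set and 0.07 in the higher). Vta1 gave -0.15 and Exoc5 0.0024 after quantile normalization, and -0.10 and -0.02 without wild type replicate 3. Each of these 5 genes had overlapping groups and an adjusted p of 0.994 or more. Rab11b, the close relative of Rab11a and also chosen after its values were seen, read 143731, 121379 and 69007 in wild type and 141247, 105898 and 97175 in knockout mucosa (log2 0.09). Its difference turned to -0.05 after quantile normalization and to -0.22 without wild type replicate 3. Knockout replicate 1 was the highest knockout array for Rab11b and the lowest for Rab11a. Vamp4 alone among the 64 had groups without overlap (5270 to 6165 against 6291 to 6518, log2 0.15), beside 7.19% of all tested probes, and it was named after its values were seen. Its difference turned to -0.03 after quantile normalization.

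**Figure D4:**
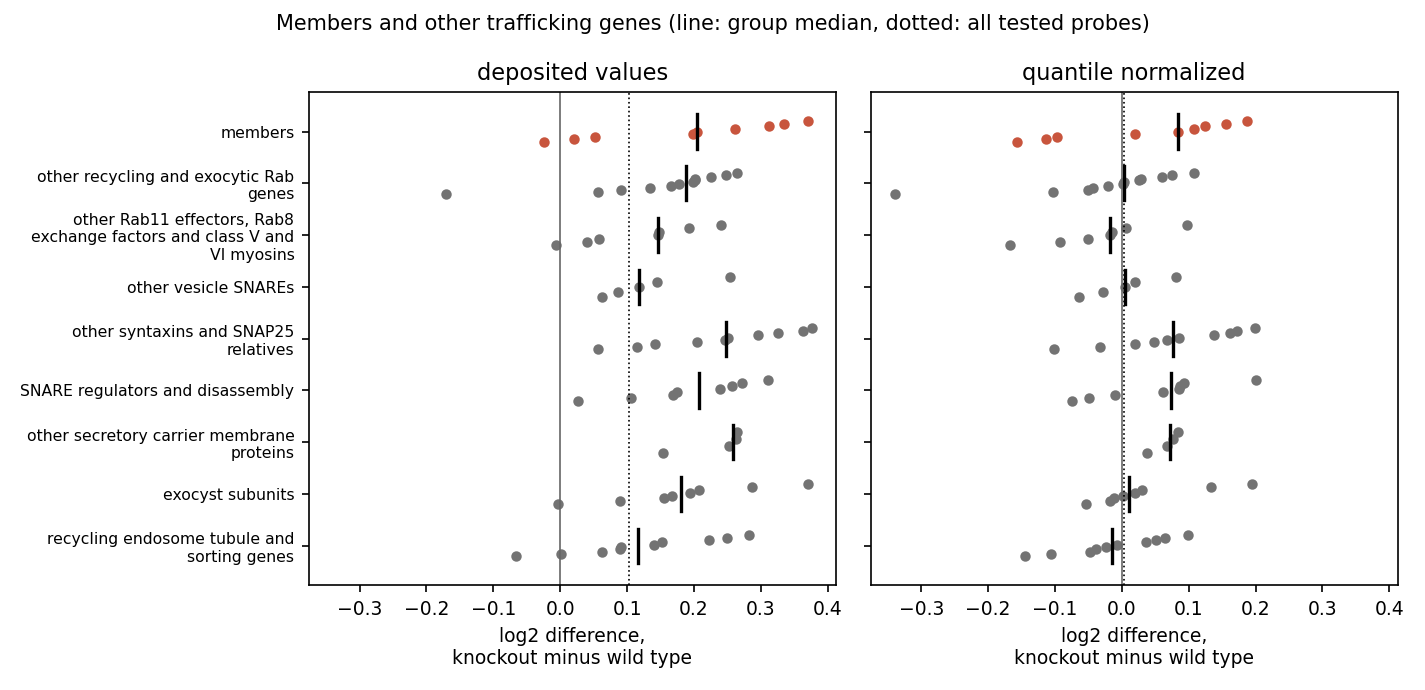
Log2 difference, knockout minus wild type, of the 9 tested members (red) and of 64 other trafficking genes by role (grey), from deposited values (left) and after quantile normalization (right). Black lines are group medians and the dotted line is the median of all tested probes, 0.10 at left and 0.0030 at right. The members' median falls from 0.20 to 0.08 between the panels.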

How the data were processed

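Biotin-labelled cRNA of fundic mucosa was read on Illumina arrays, per the labels. The deposited intensity values are linear, with the same median on each array. The scanner, its software and the background step were not stated in the labels. The platform annotation gave 1 symbol for 34885 probes, several for 18 and none for 10378. Symbols were checked against the GRCm38.p6 gene table for 34807 probes, and no coordinates of genes were taken from it. Members and lists were chosen with earlier results of these data known.

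After log2 transformation, 22640 probes whose mean exceeded that of the median probe were tested for genotype with limma 3.58.1 (R 4.3.3; lmFit, eBayes, two-sided), and p-values were adjusted over all of them by Benjamini-Hochberg. Counts of genes use the brightest probe of each. The genes named are all members, Lasp1, up to 3 trafficking genes per direction by smallest p, marker genes, and the 3 nearest in profile to the most variable member probe. Scamp5, Rab11b and Vamp4 fall outside this rule and were named after their values were seen. Code was tested on simulated data. Alternatives covered normalization, background, the filter, the variance model, array weights, blocks, and arrays left out, of which 2 (with quantile normalization) were added after seeing the data. With 6 arrays, their number limits the precision.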

Additional observations from a re-analysis of the deposited data

How the results depend on the processing

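No member was called under any setting run but array weights, which called 1 of 9 (Rab11a) and 7 of 64 other trafficking genes, beside 8.02% of all tested probes; that fit rests largely on wild type replicate 2, and its cause was not tested. The replicate number as a block called 0 of each and left the members' median at 0.20. Deviations of same-numbered arrays correlated at 0.0445, -0.299 and 0.527, and so few pairs cannot show whether the numbers pair the arrays. The members' median ran from 0.04 to 0.36 on leaving out each array.

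The signs of several uncalled differences changed, among them those near 0, but also those of Rab11a (0.34), Rab11fip1 ILMN_1221771 (0.20) and Myo5b ILMN_2539489 and ILMN_2610576 (0.20 and 0.19). Vamp2 gave -0.16 with quantile, -0.16 with cyclic loess and -0.17 with normexp and quantile normalization, -0.091 with array weights, -0.15 without both arrays with squamous and -0.11 without both with pancreatic transcripts, -0.05 with quantile normalization and the title-number block, and -0.23 with quantile normalization of the 5 arrays other than wild type replicate 3. In that order of settings Vamp8 ILMN_1219136 gave -0.11, -0.11, -0.12, -0.068, -0.0062, -0.077, -0.064 and -0.15. Scamp1 gave -0.11, -0.13, -0.11, -0.14, then -0.087 without both arrays with pancreatic transcripts, -0.025 with quantile normalization and the title-number block and -0.19 with quantile normalization without wild type replicate 3. Myo5b ILMN_1216810 gave -0.054, -0.057, -0.062, -0.23, -0.11 and -0.16 in those settings save the block. Myo5b ILMN_2539489 gave -0.12 without both arrays with pancreatic transcripts and -0.18 in the last setting, and ILMN_2610576 gave -0.0091 with array weights. With quantile normalization and the title-number block Rab11a gave -0.028 and Rab11fip1 ILMN_1221771 gave -0.013, and with the title-number block alone Rab11fip2 gave 0.022. On leaving out each array, Vamp2 ran from -0.23 to 0.27, Vamp8 ILMN_1219136 from -0.14 to 0.24, Scamp1 from -0.15 to 0.19, Myo5b from -0.17 to 0.24 (ILMN_1216810) and -0.17 to 0.50 (ILMN_2539489), and Rab11fip2 from -0.081 to 0.0064. The cause of these changes was not tested. Of 318 values of member probes under alternatives, 271 kept direction and side of the threshold, 46 changed sign and 1 passed. Signal near or under background limits what can be said of Snap25, Rab11fip1 and Rab11fip2.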
